A study of Bos taurus and other sequences with 9 samples.

Results

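Ultrafiltration and ultracentrifugation, as ways of removing extracellular vesicles (EVs) from fetal bovine serum, were compared on the same sera. UF-dFBS-1 was set against UC-dFBS-1, both made from serum of Sigma (serum 1), and UF-dFBS-2 against UC-dFBS-2, both made from serum of Gibco (serum 2). These are 4 of the 9 samples of the series and form 2 pairs, in which 425 miRNAs and 1361 loci of other small ncRNAs were compared. In UC-dFBS, ultracentrifugation (UC) pelleted the vesicles, and the top layer was kept and then also passed through a filter. In UF-dFBS, ultrafiltration (UF) passed the serum through a centrifugal filter rated by molecular mass, and the flow-through was kept. The 4 samples were DMEM/F12 culture medium holding the treated serum, without cells, and were put through an isolation for EV RNA, which may also recover RNA outside vesicles. The same medium with untreated serum (FBS-1 and FBS-2) gave the levels before depletion. StemPRO (1 sample), a serum-free medium, has another basal medium and its own supplement, so that it is not the medium of UF-dFBS without its serum. Each method was applied once to each serum, so that the samples of a method differ in serum as well as in preparation. The p-values of the fits measure the spread between samples of a medium, pooled over the FBS-based media fitted.

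Small RNA in serum travels inside EVs, with lipoproteins and bound to proteins such as Argonaute, which holds mature miRNA. A spin separates these carriers by size and density, and a filter by size alone. Fragments of tRNAs, Y RNAs and small nuclear RNAs (snRNAs) also circulate, largely in complexes with protein. The names of all RNAs are human, because reads of the bovine serum were assigned to human miRNAs and to loci of the human GRCh37 build. How reads that match several loci were placed is not given in the sources used here, so that loci of a family with near-equal counts may share reads.

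The total was 3536119 counts in UC-dFBS-1, 912341 in UC-dFBS-2, 6867736 in UF-dFBS-1 and 82513 in UF-dFBS-2. The authors divided each count by a factor from external spike-in RNAs, and levels below are these spike-in normalized counts. These spike-ins had the size of miRNAs. The paper therefore holds this scale likely to be less accurate for other small ncRNAs, which were mostly longer, than for miRNAs. The factor was 6.54 and 6.82 counts per unit in UC-dFBS and 55.2 and 24.02 in UF-dFBS, so that an equal count stood for an 8.45-fold lower level in UF-dFBS-1 than in UC-dFBS-1 and for a 3.52-fold lower level in UF-dFBS-2 than in UC-dFBS-2. The part of these factors in the differences below was not tested. A count of 0 allows up to 3 counts, equal to 0.459 and 0.440 units in UC-dFBS and 0.0543 and 0.125 units in UF-dFBS. Intervals below are exact 95% intervals of the ratio of counts and cover counting error only.

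On the spike-in scale, ultrafiltration left less of each main RNA class than ultracentrifugation did in both sera. The gap was about equal in the sera for miRNA, and larger in serum 2 for tRNA and snRNA. UC-dFBS held 7767.5 units of miRNA in serum 1 and 3851 in serum 2, and UF-dFBS held 76.1 and 39.0. Both UF-dFBS samples lay far below both UC-dFBS samples, with UF-dFBS 102-fold lower in serum 1 and 98.7-fold lower in serum 2. The log2 ratio of UF-dFBS to UC-dFBS was -6.67 (-6.72 to -6.63) and -6.63 (-6.72 to -6.53), a mean of -6.65 ± 0.034 (SD, n = 2 sera). Untreated FBS-1 and FBS-2 held 42063 and 16687 units of miRNA, of which UC-dFBS kept 18.5% and 23.1% and UF-dFBS 0.181% and 0.234%.

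For tRNA, UC-dFBS held 532209 units in serum 1 and 129130 in serum 2, and UF-dFBS held 123692 and 3346. The ratio was 4.30-fold lower in serum 1 and 38.6-fold lower in serum 2. On the log2 scale this was -2.11 (-2.11 to -2.10) and -5.27 (-5.28 to -5.26), a mean of -3.69 ± 2.24 (SD, n = 2 sera), so that the sera differed by 3.16. The highest UF-dFBS level was close to the lowest UC-dFBS level, and the groups did not overlap. Untreated FBS-2 held 63322 units of tRNA, less than UC-dFBS-2, whereas FBS-1 held 782752, more than UC-dFBS-1.

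The snRNA total was 612 and 310.2 units in UC-dFBS and 528 and 17.2 in UF-dFBS. Here the groups overlapped, with UF-dFBS-1 above UC-dFBS-2. The log2 ratio was -0.21 (-0.26 to -0.16) in serum 1 and -4.17 (-4.33 to -4.02) in serum 2. For Y RNA the levels were 308 and 411 units in UC-dFBS and 40.6 and 31.4 in UF-dFBS, giving log2 ratios of -2.93 (-3.01 to -2.84) and -3.71 (-3.83 to -3.60). The snoRNA totals of 40.1 and 24.2 units in UC-dFBS were followed by 5.54 and 1.37 in UF-dFBS, with ratios of -2.85 (-3.10 to -2.61) and -4.14 (-4.72 to -3.59). No more than 2 counts of piRNA were found in any of the 4 samples.

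**Figure D1:**
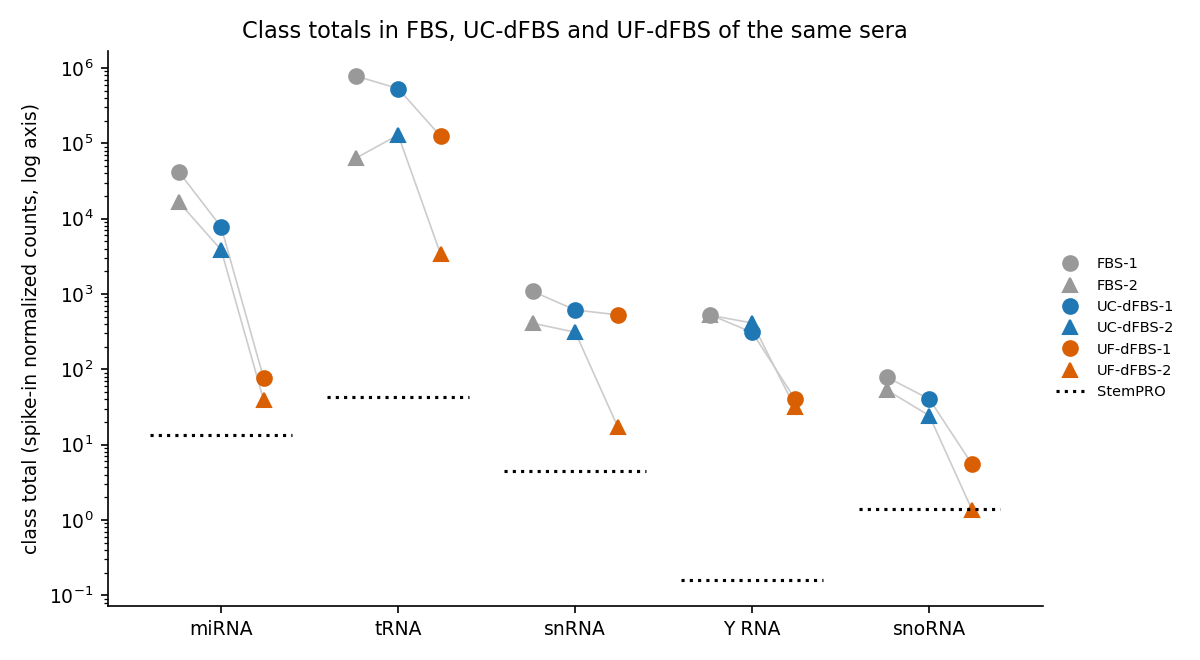
Total of each RNA class in spike-in normalized counts (log axis) in FBS, UC-dFBS and UF-dFBS, with 1 point per sample, circles for serum 1 and triangles for serum 2, and grey lines joining the samples of a serum. Dotted lines give StemPRO. Total miRNA lay at 76.1 and 39.0 units in UF-dFBS, and tRNA at 123692 and 3346.

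Permuting the 4 log2 totals exactly, 2 against 2 and two-sided, cannot give a p below 0.333. This exact permutation test gave that value for miRNA, tRNA, Y RNA and snoRNA, and 0.667 for snRNA. In serum 1 the direction of every class but miRNA depended on the scale, as the deposited counts of tRNA were 1.96 times as many in UF-dFBS-1 as in UC-dFBS-1, those of snRNA 7.29 times, those of Y RNA 1.111 times and those of snoRNA 1.17 times. In serum 2 the deposited counts were lower in UF-dFBS-2 for every one of these classes. Only miRNA was lower in UF-dFBS in both sera as spike-in normalized counts, as deposited counts and as a share of all counts. That share was 1.44% and 2.88% in UC-dFBS and 0.0612% (Wilson 95% confidence interval 0.0594 to 0.0631%) and 1.14% (1.07 to 1.21%) in UF-dFBS.

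Across single miRNAs, ultrafiltration left lower levels nearly throughout. Of 163 miRNAs with at least 10 counts in at least 2 of the 8 FBS-based samples, 153 were lower and 0 higher in UF-dFBS than in UC-dFBS, which is 93.9% and 0% (edgeR quasi-likelihood test, adjusted p under 0.05). With the serum as a block, fitted on the 6 samples of FBS, UC-dFBS and UF-dFBS, 150 of 158 (94.9%) were lower and 0 (0%) higher. Both UF-dFBS samples were below both UC-dFBS samples for 146 miRNAs (89.6%) and above both for 2 (1.23%). The median fitted log2 change over the 163 was -5.83, with the central quartiles from -6.94 to -4.79. These changes rest on the spike-ins. When the miRNA table was scaled to its own counts, which sets the median near 0, TMM gave 6 lower and 9 higher miRNAs with a median of -0.52, and DESeq2 with its own size factors gave 6 lower and 10 higher with a median of -0.13.

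The most abundant miRNA of all 4 samples was hsa-miR-122-5p, which hepatocytes make in large amounts. It was at 4629 and 2100 units in UC-dFBS and at 46.0 and 16.2 in UF-dFBS. Its log2 ratio was -6.65 (-6.71 to -6.59) in serum 1 and -7.02 (-7.17 to -6.87) in serum 2, and its fitted change was -6.76 ± 1.84 (SE, adjusted p = 0.00034, edgeR). It made up 59.6% and 54.5% of the miRNA counts in UC-dFBS and 60.4% and 41.5% in UF-dFBS. Without it, total miRNA was 104-fold and 76.7-fold lower in UF-dFBS.

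The let-7 miRNAs, which hold back growth genes in differentiated cells, were lower for 9 of 9 tested members, with a median fitted change of -7.37 against -5.83 over all miRNAs. The family summed to 1156 and 589 units in UC-dFBS and to 4.001 and 5.70 in UF-dFBS. In hsa-let-7a-5p the levels were 381 and 178 units in UC-dFBS and 0.670 and 0.874 in UF-dFBS, which is 568-fold and 204-fold lower. For hsa-let-7b-5p, 323 and 183 units in UC-dFBS stood against 2.08 and 2.62 in UF-dFBS, or 155-fold and 69.9-fold lower. hsa-let-7a-5p was thus lower by more than hsa-let-7b-5p in both sera. hsa-let-7f-5p changed by -9.34 (-10.08 to -8.69) in serum 1 and -6.65 (-7.29 to -6.07) in serum 2.

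Among the largest called decreases were miRNAs of the vessel wall and hsa-miR-142-3p of blood cells. Some other miRNAs of these sources fell less, with fitted changes of -2.85 for hsa-miR-145-5p (vessel wall) and -4.42 for hsa-miR-486-5p (red cells). hsa-miR-126-3p, made by endothelial cells, was at 320.0 and 155 units in UC-dFBS and at 0.235 and 0.167 in UF-dFBS, from 13 and 4 counts. Its log2 ratios were -10.41 (-11.32 to -9.63) and -9.86 (-11.74 to -8.50), and the UF-dFBS levels were below the 0.629 units of StemPRO. The other strand of the same hairpin, hsa-miR-126-5p, had 234 and 123 counts in UC-dFBS and 0 in both UF-dFBS samples, at least 659-fold and 144-fold lower. hsa-miR-143-3p, typical of smooth muscle, was at 227 and 71.8 units in UC-dFBS and 0.217 and 0.0416 in UF-dFBS. hsa-miR-142-3p, specific to blood cells, was at 192 and 71.7 units in UC-dFBS and 0.290 and 0.0833 in UF-dFBS. hsa-let-7e-5p had 142 and 95 counts in UC-dFBS and 1 and 0 in UF-dFBS. hsa-miR-126-5p, hsa-miR-126-3p, hsa-let-7e-5p, hsa-miR-143-3p, hsa-miR-142-3p and hsa-let-7a-5p were the 6 that were also lower with the table scaled to its own counts, by TMM as by DESeq2 (fitted change of hsa-miR-126-3p with TMM -3.92 ± 0.52, SE, adjusted p = 3.73e-05, edgeR).

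Other miRNAs are described because they kept at least 10 counts in all 4 samples, a choice that leaves out miRNAs with steep falls. hsa-miR-16-5p, common in red cells, was at 60.4 and 36.2 units in UC-dFBS and at 1.07 and 1.21 in UF-dFBS, and StemPRO held 2.02 units of it. hsa-miR-486-5p, a miRNA of erythroid cells, was at 10.6 and 17.6 units in UC-dFBS and 0.489 and 0.833 in UF-dFBS, with like falls in the sera of 21.6-fold and 21.1-fold. hsa-miR-423-5p was 71.0-fold and 54.2-fold lower, hsa-miR-223-3p of myeloid cells and platelets 112-fold and 60.1-fold, and hsa-miR-21-5p 117-fold and 81.5-fold. hsa-let-7i-5p was 188-fold and 139-fold lower. Of the 11 miRNAs with such counts, the 10 other than hsa-miR-203a were called lower, although hsa-miR-16-5p, hsa-miR-423-5p and hsa-miR-486-5p had fitted changes above 0 with the table scaled to its own counts, none of them called.

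Lists of miRNAs by source are to be read against all tested miRNAs, of which 93.9% were called lower at a median fitted change of -5.83. All 4 tested miRNAs of the vessel wall (median fitted change -10.01), 6 of 6 of white cells and platelets (-7.04), 4 of 4 of red cells (-4.54) and 3 of 3 of liver (-5.78) were called lower. So were 19 of 19 of the DLK1-DIO3 locus (-6.22), an imprinted cluster active in the fetus. There hsa-miR-432-5p went from 38.2 and 24.04 units to 0.489 and 0.125. Of muscle and heart miRNAs 1 of 2 was called lower (-2.04), as was 1 of 2 of the short RNAs of doubtful origin (-2.45). Of the miR-320 family, 4 of 4 were lower (-5.04), with hsa-miR-320a at 7.19 and 9.09 units in UC-dFBS and 0.199 and 0.250 in UF-dFBS. Of miRNAs that the study's supplement lists as found in vesicles, 33 of 34 were lower (median -6.08), as were 79 of 82 listed as non-vesicular only (-6.01) and 41 of 47 without an entry (-5.19). The counts of the first and second of these sets were near the share called over all miRNAs. In total the first was 284.5-fold lower in serum 1 and 148-fold lower in serum 2, and the second 101-fold and 107-fold. Of the 20 miRNAs listed most often for EVs, 17 of the 18 in the table were called lower, again near the share over all miRNAs.

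The epithelial list had no call, with 0 of 5 tested miRNAs called in either direction and a median fitted change of 0.29. Its members did not all move alike. hsa-miR-200a-3p, named after its values had been seen, was lower in both sera, at -4.08 (-9.96 to 0.18) and -1.82 (-8.11 to 4.48). It had 2 and 1 counts in UC-dFBS and 1 in each UF-dFBS sample. hsa-miR-31-5p had 1 count in each UC-dFBS sample and 15 and 0 in UF-dFBS. hsa-miR-203a, a miRNA of skin and other epithelia, was at 3.52 and 3.22 units in UC-dFBS and at 5.11 and 3.12 in UF-dFBS. The groups overlapped, and the log2 ratios were 0.54 (-0.08 to 1.22) and -0.05 (-0.75 to 0.71), with intervals that include 0. It was the 77th and 70th miRNA by counts in UC-dFBS and the 2nd in both UF-dFBS samples, where it made up 6.71% and 8.004% of miRNA counts. StemPRO held 3.22 units, from 348 counts. The paper saw hsa-miR-203a mostly as short inserts and raises the possibility of an artifact, which would also account for the reads in StemPRO. Whether the hsa-miR-203a reads came from the miRNA itself was not tested. hsa-miR-205-5p, of stratified epithelia, was the only miRNA with at least 10 counts in both UF-dFBS samples that was above UC-dFBS in both sera, at 0.459 and 0.293 units in UC-dFBS, from 3 and 2 counts, and 1.12 and 0.749 in UF-dFBS, from 62 and 18 counts. Its log2 ratios of 1.29 (-0.32 to 3.61) and 1.35 (-0.71 to 4.51) did not pass the test (fitted change 1.31 ± 1.12, SE, adjusted p = 0.25, edgeR), and the UC-dFBS levels were at or under the 3 counts that a count of 0 allows. StemPRO held 0.555 units. hsa-miR-184 had 1 count in each UC-dFBS sample and 11 and 5 in UF-dFBS, and 0.213 units in StemPRO. The part of RNA from sources other than serum in these UF-dFBS levels was not tested.

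Other miRNAs that did not pass the test had few counts or differed between the sera. hsa-miR-1 of muscle was at 2.60 and 0.440 units in UC-dFBS and at 0.489 and 0.749 in UF-dFBS, lower in serum 1 at -2.41 (-3.34 to -1.44), while in serum 2 the ratio was 0.77 (-1.01 to 3.18). hsa-miR-4532, one of several short RNAs listed as miRNAs whose origin is doubtful, was at 1.68 and 0.147 units in UC-dFBS and 1.10 and 0.167 in UF-dFBS. hsa-miR-145-5p, which is made from the same transcript as hsa-miR-143-3p, was called lower, but its 68 counts in UF-dFBS-1 against 1 in UF-dFBS-2 gave ratios of -2.48 (-3.05 to -1.91) and -6.14 (-11.51 to -3.49). Scaled to the table's own counts, hsa-miR-203a, hsa-miR-205-5p, hsa-miR-184, hsa-miR-31-5p, hsa-miR-1, hsa-miR-4532, hsa-miR-145-5p, hsa-miR-7-5p and hsa-miR-100-5p were the 9 higher in UF-dFBS by TMM and were among the 10 by DESeq2. The last pair and hsa-miR-31-5p, with 10 and 2, 46 and 0, and 15 and 0 counts in UF-dFBS, are named after their values had been seen because they belong to these 9.

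**Figure D2:**
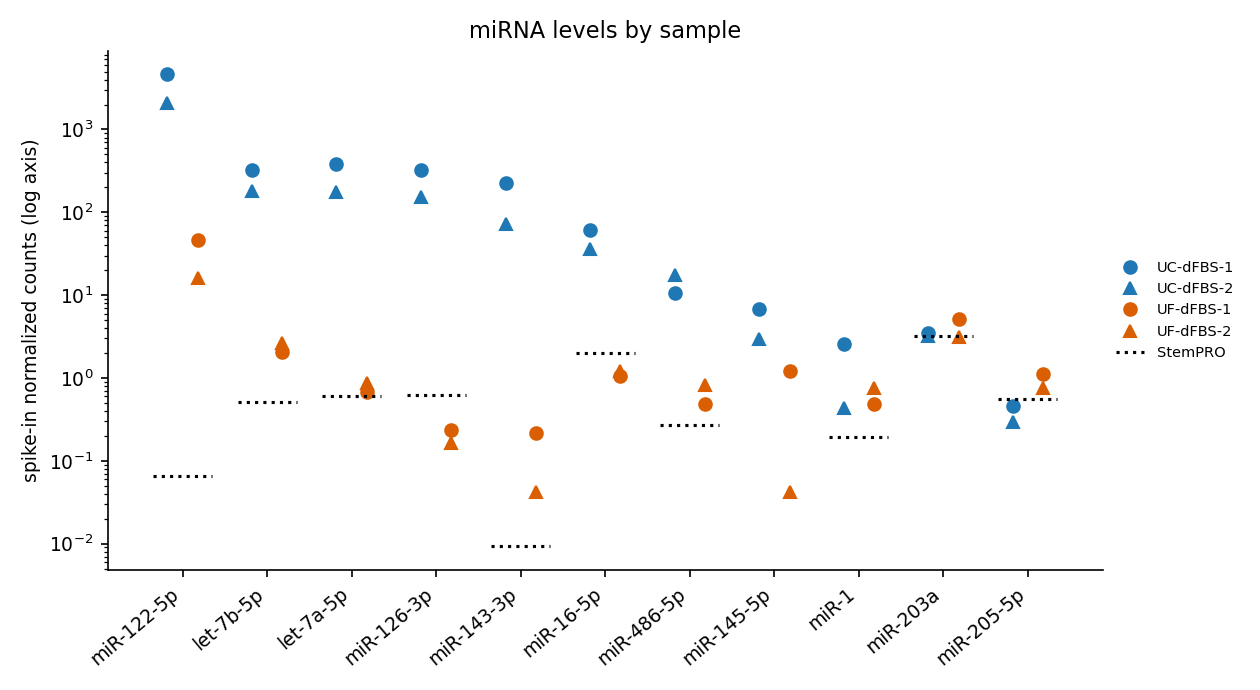
Level of 11 miRNAs in spike-in normalized counts (log axis) in UC-dFBS (blue) and UF-dFBS (orange), with circles for serum 1, triangles for serum 2 and dotted lines for StemPRO. hsa-miR-122-5p lay at 4629 and 2100 units in UC-dFBS and at 46.0 and 16.2 in UF-dFBS, whereas the points of hsa-miR-203a lay between 3.12 and 5.11 units in both.

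Fewer miRNAs could be seen after ultrafiltration. Above 1 unit, 119 and 100 miRNAs were found in UC-dFBS and 8 and 6 in UF-dFBS. The only miRNA above 1 unit in a UF-dFBS sample but not in UC-dFBS of the same serum was found in serum 1, and was hsa-miR-205-5p. Of the 103 miRNAs with at least 10 counts in UC-dFBS-1, 18 had 0 counts in UF-dFBS-1 and 46 had no more than 3. In serum 2 these were 19 and 60 of 87, so that falls of low miRNAs were limited by depth. Of 86 miRNAs with at least 10 counts in both UC-dFBS samples, UF-dFBS-1 was at or below the StemPRO level for 20 and UF-dFBS-2 for 28.

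For other small ncRNAs the median fitted change was -2.47 on the spike-in scale, but the ratios were unequal in the sera and the calls depended on whether the serum entered the fit. The median of the tRNA loci, -2.36, depended on single samples and was -0.28 without UC-dFBS-1 and -5.69 without UF-dFBS-1. Each such fit sets 1 sample of a method against both of the other, so that the difference between the sera enters it. Scaled to the table's own counts, the class medians lay between -0.53 and -0.14 with TMM and between 0.15 and 0.55 with DESeq2. Of 363 loci tested, 0 were called lower (0%) and 0 higher (0%) by edgeR without a block, and 51 were lower and 0 higher at an unadjusted p under 0.05. DESeq2 on the same spike-in scale called 33 lower and 0 higher, and with its own size factors 2 lower and 11 higher. The serum as a block, fitted on the 6 samples of FBS, UC-dFBS and UF-dFBS, takes out the difference between the sera. With it, edgeR called 164 of 322 lower (50.9%) and 0 higher (0%). Both UF-dFBS samples were below both UC-dFBS samples for 181 of the 363 loci (49.9%) and above both for 2 (0.551%), tRNA128-LysCTT and tRNA2-ArgCCT, which had no more than 1 count in UC-dFBS. These are named after their values had been seen, and their UC-dFBS levels are within what a count of 0 allows. By class, the block called 117 of 259 tRNA loci lower, 30 of 41 snRNA loci, 15 of 18 Y RNA loci and 2 of 4 snoRNA loci. Above 1 unit, 243 and 161 tRNA loci were found in UC-dFBS and 193 and 65 in UF-dFBS.

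Among the tRNAs, the most abundant fragments were from tRNA-Gly with anticodon CCC and tRNA-His with anticodon GTG. tRNAs bring amino acids to the ribosome, and under stress or outside cells they are found cut into fragments. HisGTG loci summed to 319966 and 32890 units in UC-dFBS and to 26144 and 377 in UF-dFBS, which is 12.2-fold and 87.1-fold lower. GlyCCC loci summed to 129456 and 62553 units in UC-dFBS and to 46792 and 2669 in UF-dFBS, 2.77-fold and 23.4-fold lower. Untreated FBS-1 and FBS-2 held 498743 and 4187 units of HisGTG and 158831 and 35331 of GlyCCC. In serum 2, UC-dFBS thus lay above the untreated serum for both. HisGTG was lower by more than GlyCCC in both sera, and their order differed between the methods in serum 1, with HisGTG at 60.1% and GlyCCC at 24.3% of tRNA counts in UC-dFBS-1 and at 21.1% and 37.8% in UF-dFBS-1. In serum 2, GlyCCC made up 48.4% of the tRNA counts after ultracentrifugation and 79.8% after ultrafiltration. The 10 HisGTG loci with at least 10 counts in both UC-dFBS samples had near-equal ratios, from -3.69 to -3.49 in serum 1 and from -6.76 to -5.82 in serum 2. tRNA7-HisGTG, on chromosome 9 from 14433938 to 14434009 of the minus strand in GRCh37, was at 43583 and 4694 units in UC-dFBS and at 3418 and 44.1 in UF-dFBS.

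Glutamate (GluTTC) and alanine tRNAs had far lower ratios in serum 2 than in serum 1. GluTTC loci summed to 27080 and 18929 units in UC-dFBS and to 4932 and 81.6 in UF-dFBS, 5.49-fold lower in serum 1 and 232-fold lower in serum 2. Untreated FBS-1 and FBS-2 held 39804 and 18205 units of GluTTC, the latter close to UC-dFBS-2. tRNA11-GluTTC on chromosome 15 (from 26327381 to 26327452, minus strand) was at 9196 and 6571 units in UC-dFBS and at 1435 and 27.6 in UF-dFBS, while tRNA20-GluTTC had log2 ratios of -2.45 (-2.48 to -2.43) and -8.00 (-8.18 to -7.83). The alanine families AlaAGC, AlaCGC and AlaTGC moved alike, with log2 ratios from -1.93 to -1.91 in serum 1 and from -6.99 to -6.77 in serum 2. AlaCGC was at 10200 and 942 units in untreated FBS-1 and FBS-2 and at 8296 and 3813 in UC-dFBS. For AlaAGC and AlaTGC too, UC-dFBS-2 lay above FBS-2. tRNA13-AlaCGC was at 2852 and 1322 units in UC-dFBS and at 747 and 11.2 in UF-dFBS. None of these 3 named loci passed the test with the serum as a block (adjusted p between 0.14 and 0.15, edgeR).

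Valine tRNAs with anticodons CAC and AAC had ratios of opposite sign in the sera. ValCAC loci were at 12574 and 1569 units in UC-dFBS and at 17541 and 19.9 in UF-dFBS. The log2 ratio was 0.48 (0.47 to 0.49) in serum 1, higher after ultrafiltration, and -6.30 (-6.43 to -6.17) in serum 2. ValAAC loci, with counts close to those of ValCAC, gave 0.47 (0.46 to 0.48) and -6.29 (-6.44 to -6.15). Untreated FBS-1 and FBS-2 held 18629 and 282 units of ValCAC and 16978 and 253 of ValAAC. FBS-2 was below UC-dFBS-2 for both. tRNA6-ValCAC on chromosome 5 (from 180600650 to 180600722, plus strand) was at 1597 and 202 units in UC-dFBS and at 2271 and 2.71 in UF-dFBS. ValTAC loci did not share this pattern, at -1.67 (-1.69 to -1.65) and -6.71 (-7.06 to -6.38). With the block, 1 of 13 ValCAC, 2 of 10 ValAAC and 1 of 5 ValTAC loci were called lower. Over all tRNA loci it was 117 of 259. With 1 pair of samples in each serum, the difference between the sera was not tested.

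GlyGCC and GluCTC loci also had ratios of opposite sign. GlyGCC summed to 1049 and 62.4 units in UC-dFBS and to 3286 and 12.0 in UF-dFBS, 1.65 (1.61 to 1.68) in serum 1 and -2.38 (-2.60 to -2.16) in serum 2. All 13 of its loci with at least 10 counts in both UC-dFBS samples were above UC-dFBS in serum 1, at ratios from 1.43 to 2.29, and below it in serum 2. tRNA35-GlyGCC, on chromosome 1 from 161413094 to 161413164 of the plus strand, had 232 and 15 counts in UC-dFBS and 9619 and 11 in UF-dFBS. tRNA4-GlyCCC moved with the GlyGCC loci and not with the main GlyCCC loci, at 1.57 (1.46 to 1.69) and -1.82 (-2.57 to -1.06), against -1.52 and -4.54 for tRNA34-GlyCCC. GluCTC loci gave 0.40 (0.36 to 0.43) and -3.80 (-3.91 to -3.68), in contrast to GluTTC, which was lower in both sera. Untreated FBS-1 and FBS-2 held 3882 and 431 units of GlyGCC and 2252 and 485 of GluCTC, in each serum more than UC-dFBS. tRNA9-ArgTCT had 44 and 5 counts in UC-dFBS and 2374 and 9 in UF-dFBS, with ratios of 2.67 (2.25 to 3.14) and -0.97 (-2.70 to 0.96). By edgeR on the spike-in scale none of the GlyGCC, GlyCCC and ArgTCT loci was called in either direction, and 1 of 9 GluCTC loci was called lower with the block. Over all tRNA loci the block called 117 of 259 lower. With its own size factors DESeq2 called 5 GlyGCC loci and tRNA9-ArgTCT higher (adjusted p = 0.0498), and with TMM edgeR called none.

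Several tRNA families of lower abundance were lower in UF-dFBS in both sera. With the serum as a block, 13 of 14 AspGTC loci, 10 of 10 ProAGG loci, 9 of 10 MetCAT loci and 4 of 4 ThrCGT loci were called lower, against 117 of 259 for all tRNA loci. AspGTC loci summed to 1165 and 344 units in UC-dFBS and to 117 and 16.8 in UF-dFBS, 10.002-fold and 20.4-fold lower. tRNA4-AspGTC had fitted changes of -3.72 (adjusted p = 0.37, edgeR) without and -3.97 (adjusted p = 0.021) with the block. MetCAT loci were 13.1-fold and 112-fold lower, with tRNA171-MetCAT at 103 and 31.5 units in UC-dFBS and at 7.10 and 0.208 in UF-dFBS. ProAGG loci were 6.78-fold and 58.8-fold lower, and tRNA29-ProAGG had 112 and 76 counts in UC-dFBS and 117 and 3 in UF-dFBS. In serum 2, UC-dFBS lay above untreated serum for MetCAT (298 against 204 units) and ThrCGT, and below it for AspGTC and ProAGG. tRNA92-PseudoGAA, a locus of an inactive tRNA copy, fell from 45.4 and 25.1 units to 0.779 and 0.208. A few loci with at least 10 counts in both UF-dFBS samples were above UC-dFBS in both sera. These were the 3 loci tRNA23-LysTTT, tRNA143-LysTTT and tRNA105-AlaAGC, with no more than 6 counts in UC-dFBS and ratios between 0.09 and 1.51, all with intervals that include 0. LysTTT loci as a whole were lower, at -0.46 (-0.51 to -0.40) and -3.91 (-4.20 to -3.63).

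The snRNAs, which form the core of the spliceosome, differed by family, and counts called with the block are to be read against 30 of 41 for all snRNA loci and 50.9% for all loci. U11 and U12, of the minor spliceosome that removes a rare class of introns, were lower in both sera. RNU11-201, on chromosome 1 from 28975112 to 28975245, was at 118 and 101 units in UC-dFBS and at 0.380 and 0.583 in UF-dFBS, and 0 counts were found in StemPRO. It was 311-fold and 173-fold lower, with a fitted change of -7.81 (adjusted p = 0.20 without and 0.00024 with the block, edgeR). RNU12-201, on chromosome 22 from 43011250 to 43011399, went from 60.0 and 58.0 units to 1.67 and 1.58, 36.0-fold and 36.7-fold lower. U2 loci summed to 72.8 and 87.4 units in UC-dFBS and to 4.45 and 2.62 in UF-dFBS, and 9 of 10 were called lower with the block, among them U2.38-201 at -6.15 (-7.26 to -5.20) and -6.57 (-8.47 to -5.17). U1 loci, of which 19 of 19 were called lower with the block, summed to 24.5 and 29.0 units in UC-dFBS and to 0.905 and 3.37 in UF-dFBS. U1 fell further in serum 1, by 27.0-fold against 8.61-fold, as U11 did, whereas U2 fell further in serum 2.

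U4 was the only one of the snRNA families with at least 10 counts in all 4 samples whose ratio was above 0 in serum 1. U4 loci summed to 330.0 and 30.5 units in UC-dFBS and to 518 and 7.45 in UF-dFBS. The log2 ratio was 0.65 (0.59 to 0.71) in serum 1 and -2.03 (-2.33 to -1.74) in serum 2. Untreated FBS-1 and FBS-2 held 557 and 6.71 units of U4. In serum 2, UC-dFBS thus lay above the untreated serum and UF-dFBS close to it. For U1, U2, U11 and U12, by contrast, FBS-2 lay above UC-dFBS-2. With the block, 0 of 10 U4 loci were called, whereas 30 of 41 snRNA loci were called lower. The 10 loci had near-equal counts, with ratios from 0.56 to 0.80 in serum 1 and from -2.72 to -1.45 in serum 2. RNU4-1-201, on chromosome 12 from 120730900 to 120731040, had 215 and 18 counts in UC-dFBS and 2935 and 17 in UF-dFBS. As other snRNAs fell, U4 went from 53.9% to 98.0% of snRNA counts in serum 1 and from 9.83% to 43.3% in serum 2. U4 thus held nearly all snRNA counts of UF-dFBS-1, where total snRNA was close to that of UC-dFBS-1. In serum 2 U4 was not apart from the remaining families, as U6 had ratios of -0.80 (-1.41 to -0.15) and -0.67 (-1.62 to 0.36) and U5, from at most 32 counts, of -1.25 and -1.82. U6 made up 0.675% and 0.662% of snRNA counts in UC-dFBS and 0.449% and 7.51% in UF-dFBS.

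**Figure D3:**
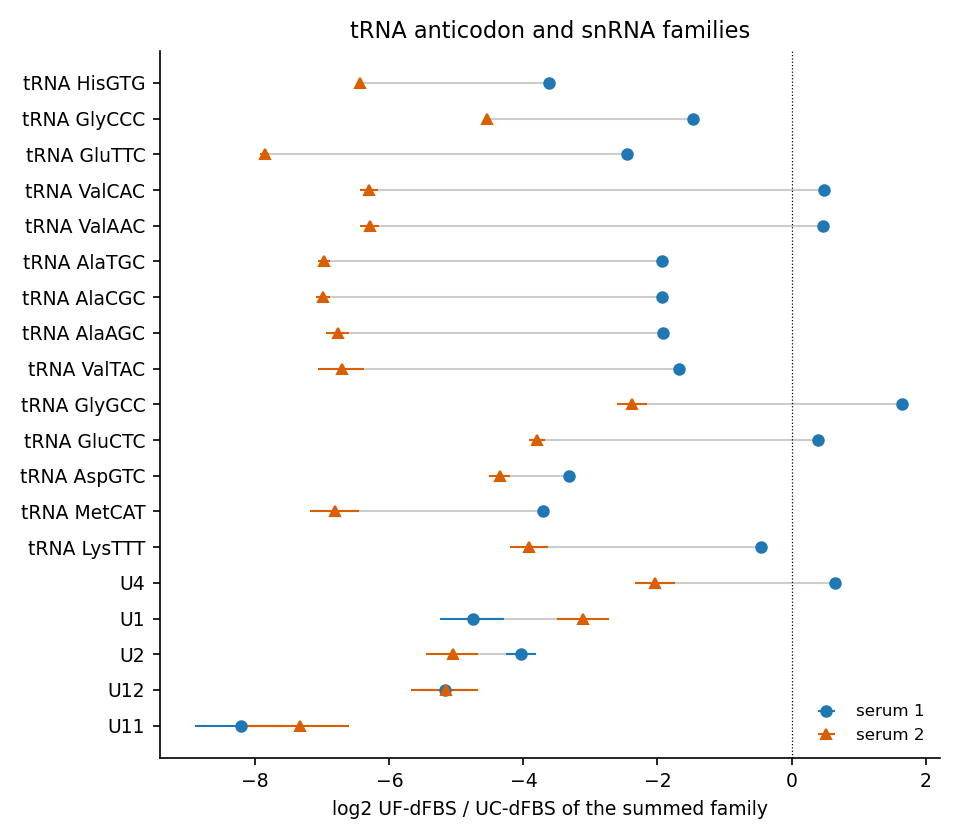
Log2 ratio of UF-dFBS to UC-dFBS of 14 tRNA anticodon families and 5 snRNA families, as the sum of their loci, in serum 1 (circles) and serum 2 (triangles), with exact 95% counting intervals as bars. ValCAC, ValAAC, GlyGCC, GluCTC and U4 lay above 0 in serum 1 and below 0 in serum 2, whereas U12 lay at -5.17 and -5.16.

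Y RNAs, which bind the Ro60 protein and take part in DNA replication, were lower in both sera, with 15 of 18 loci called with the block. Over all loci other than miRNAs, the block called 164 of 322 lower (50.9%). The 4 most abundant loci were the same and in the same order in all 4 samples, led by Y_RNA.384-201 with 28.0% and 26.3% of Y RNA counts in UC-dFBS and 42.5% and 36.1% in UF-dFBS. Y_RNA.384-201, on chromosome 7 from 6252269 to 6252371, was at 86.4 and 108 units in UC-dFBS and 17.2 and 11.3 in UF-dFBS, 5.01-fold and 9.55-fold lower. It did not pass the test with the block (adjusted p = 0.093, edgeR), while Y_RNA.493-201 at 7.83-fold and 14.7-fold lower (adjusted p = 0.036) and Y_RNA.273-201 at 12.6-fold and 12.3-fold lower (adjusted p = 0.0035) did. With TMM, which compares with the other loci, the fitted changes of Y_RNA.384-201 and Y_RNA.273-201 were 0.45 and 0.016. In each serum 11 Y RNA loci, not all the same, had at least 10 counts in UC-dFBS. Their median log2 ratio was -3.44 in serum 1 and -3.88 in serum 2. Over the 9 loci with such counts in both sera, it was -3.47 and -4.03.

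Of the snoRNAs, which guide chemical modification of other RNAs, few had enough counts. SNORD94-201, on chromosome 2 from 86362993 to 86363129, was at 22.9 and 18.8 units in UC-dFBS and at 0.127 and 0.0833 in UF-dFBS, from 7 and 2 counts, with log2 ratios of -7.50 (-8.84 to -6.42) and -7.82 (-10.88 to -5.93). SCARNA15-201, a small RNA of Cajal bodies, had 15 and 12 counts in UC-dFBS and 0 in both UF-dFBS samples, at least 42.2-fold and 14.1-fold lower. Both were called lower with the block. SNORD57.1-201 had 61 and 2 counts in UC-dFBS and 152 and 1 in UF-dFBS, nearly all of them in serum 1. SCARNA17-201 was at 0.612 and 1.03 units in UC-dFBS and 0.760 and 0.458 in UF-dFBS, with overlapping groups, and at 0.935 units in StemPRO.

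The sera were compared through the ratio of each RNA in both. The median log2 ratio of miRNAs was -6.85 in serum 1 (103 miRNAs with at least 10 counts in UC-dFBS-1, 0.5 counts added) and -6.31 in serum 2 (87 miRNAs). For tRNA loci it was -2.44 (234 loci, of which 45 were above UC-dFBS) and -5.35 (148 loci, 0 above). For snRNA loci it was -4.63 (22 loci, 10 above) and -3.40 (29 loci, 0 above), but these loci were not the same in the sera. Over the 20 snRNA loci with at least 10 counts in both UC-dFBS samples, the order was reversed, at -2.02 in serum 1 and -3.06 in serum 2. Among RNAs with at least 10 counts in both UC-dFBS samples, the ratio was higher in serum 1 than in serum 2 for 141 of 148 tRNA loci, 17 of 20 snRNA loci and 8 of 9 Y RNA loci, but for 37 of 86 miRNAs. The correlation of the ratios between the sera across RNAs was 0.60 for miRNAs (Spearman 0.41) and 0.47 for tRNA loci (Spearman 0.40). These RNAs share their libraries and, for tRNA, possibly reads, and they are not independent replicates. Among these miRNAs the log2 ratio in serum 1 minus that in serum 2 ran from -4.30 in hsa-miR-98-5p, which had 0 and 1 counts in UF-dFBS and was named after its values had been seen, to 3.10 in hsa-miR-145-5p.

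**Figure D4:**
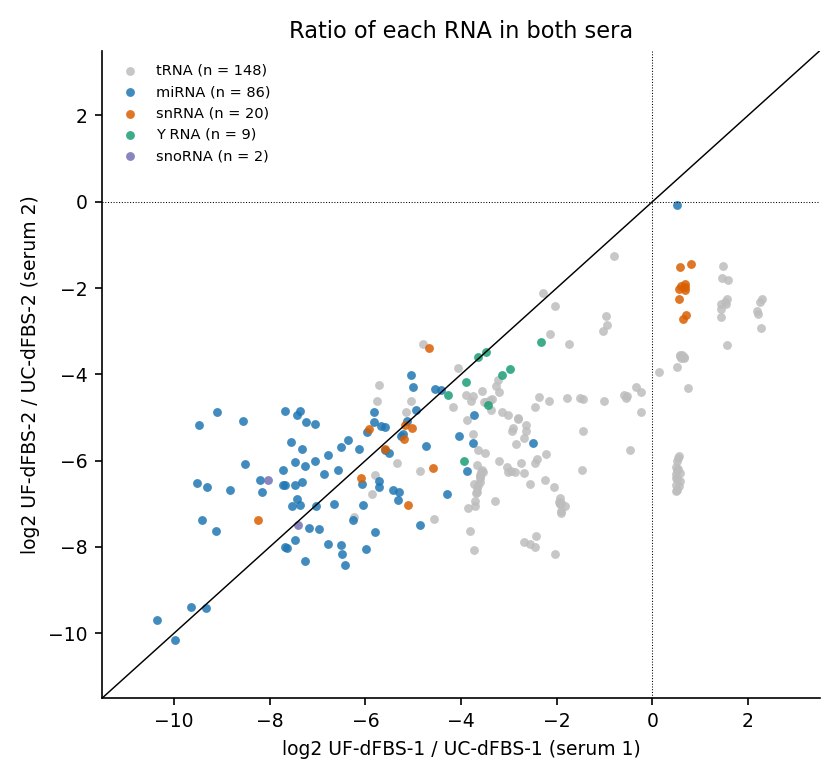
Log2 ratio of UF-dFBS to UC-dFBS of each RNA in serum 1 (x axis) and serum 2 (y axis), for RNAs with at least 10 counts in both UC-dFBS samples and 0.5 counts added. The solid line marks equal ratios and dotted lines mark 0. The 86 miRNAs scatter around the line, whereas 141 of 148 tRNA loci lie below it, and 39 tRNA loci, 10 snRNA loci and 1 miRNA lie right of 0.

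UF-dFBS was also set beside StemPRO, a serum-free medium of other composition. Total miRNA was 5.72 and 2.93 times that of StemPRO in UF-dFBS and 584 and 289 times in UC-dFBS. For snoRNA, UF-dFBS was at 4.02 and 0.996 times StemPRO, and for snRNA at 119 and 3.86 times. Total tRNA was still 2912 and 78.8 times, and Y RNA 258 and 199.5 times, the StemPRO level. Of 179 other loci with at least 10 counts in both UC-dFBS samples, UF-dFBS-1 was at or below StemPRO for 7 and UF-dFBS-2 for 17. StemPRO was 1 sample of 6679 counts, without a replicate.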

How the data were processed

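Small RNA of cell-free media was sequenced with unique molecular identifiers. The authors deposited counts per miRNA and per small ncRNA locus, made after trimming (cutadapt 1.11) and mapping (Bowtie2 2.2.2) to miRBase and GRCh37, per the labels' processing notes and the study's methods. The authors also deposited a normalized signal, each count divided by the slope of the sample's spike-in reads on their concentrations. Counts were fitted with edgeR 4.0.16 (R 4.3.3, quasi-likelihood), one fit for miRNAs and one for other loci, on the 8 FBS-based samples, with these slopes as library sizes, 10 counts required in 2 samples and Benjamini-Hochberg adjustment. UF-dFBS minus UC-dFBS was the contrast. The sera number the samples, and each number is the same serum, per the study's methods. Serum therefore also served as a block, in a fit on the 6 samples of FBS, UC-dFBS and UF-dFBS. Deviations of equal numbers correlated at 0.78 over 179 other loci and at -0.06 over 86 miRNAs. DESeq2 1.42.0, TMM, other filters and left-out samples were alternatives. Of these, only the edgeR fit without a block, on the spike-in scale, was run on simulated counts with known changes. Those counts held no difference between the sera.

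RNAs named were the most abundant, the most changed, those with at least 10 counts in all 4 samples, those above UC-dFBS in both sera, and members of the lists (miRNAs by source tissue, let-7, miR-320, DLK1-DIO3 and doubtful short RNAs, miRNA localization in the study's supplement, tRNA anticodons, snRNA, snoRNA and Y RNA families). These members and lists were chosen with earlier results of these data known. Ratios within a serum have exact intervals at 95%. Sequences were not used here.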

Additional observations from a re-analysis of the deposited data

Results flagged for a closer look

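In 5 tRNA anticodon and snRNA families the ratio of UF-dFBS to UC-dFBS had opposite signs in serum 1 and serum 2, with counting intervals that exclude 0 in both sera. Other families with opposite signs, ArgTCT among them, had an interval that includes 0 in at least 1 serum. The log2 ratio in serum 1 minus that in serum 2 was 6.78 for ValCAC, 6.76 for ValAAC, 4.20 for GluCTC, 4.03 for GlyGCC and 2.68 for U4. With 1 pair of samples in each serum this difference was not tested. In serum 2, UC-dFBS lay above untreated serum for ValCAC, ValAAC and U4, and below it for GluCTC and GlyGCC. Single loci did not all share the sign of their family, as the lowest locus ratio in serum 1 was -4.86 in GluCTC, -4.56 in ValCAC and -2.55 in ValAAC.

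Some RNAs that were not lower in UF-dFBS were also present in serum-free StemPRO, which the comparison did not use. It held 3.22 units of hsa-miR-203a, 0.555 of hsa-miR-205-5p, 0.629 of tRNA23-LysTTT, 0.296 of tRNA143-LysTTT and 0.148 of tRNA105-AlaAGC. These were listed because they were above the 0.0278 units that a count of 0 allows there. Others that were not called lower had 0 counts in StemPRO, as hsa-miR-31-5p, hsa-miR-4532 and tRNA94-GluTTC did. tRNA94-GluTTC, named after its values had been seen, was above UC-dFBS in both sera (2.01 and 1.18). The part of RNA of the kind seen in StemPRO in the UF-dFBS levels was not tested.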

How the results depend on the processing

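Each result rests on 1 sample per serum and method, and the spike-in factors moved with the method. UF-dFBS-2 had the fewest counts of the 4 samples, and 14 miRNAs reached 10 counts there. On the spike-in scale, 1 count stood for 0.0416 units in UF-dFBS-2, less than the 0.153 and 0.147 in UC-dFBS. Library preparation cannot be told apart from method.

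The miRNA calls became 6 lower and 9 higher with TMM, 6 and 10 with DESeq2's own size factors, 10 lower with 10 counts in all 4 samples, 87 with the 4 samples alone and 85 with these and the replicate block. Leaving out 1 sample gave 124 (without UC-dFBS-1) to 150 (without UC-dFBS-2). The other loci gave 33 lower with DESeq2 on spike-ins, 2 lower and 11 higher with its own size factors, 4 lower with 10 counts in all 4 samples, 164 with the serum as a block and 87 with the block in the 4 samples alone, while leaving out 1 sample gave 0. The cause of these changes was not tested, except that fewer RNAs were tested under the stricter filters and with 4 samples.

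On deposited counts the mean log2 ratio of the class totals was -4.20 for miRNA, -1.24 for tRNA, 0.25 for snRNA, -0.87 for Y RNA, -1.05 for snoRNA and -1.26 for all. As a share of all counts it was -2.95 for miRNA, 0.014 for tRNA, 1.51 for snRNA, 0.38 for Y RNA and 0.21 for snoRNA. Total miRNA was -6.48 without hsa-miR-122-5p and -6.72 without it and hsa-miR-203a, and snoRNA -4.92 from the highest locus of each family. Median ratios in serum 1 and serum 2 were, with 100 counts in UC-dFBS, -7.47 and -6.97 for miRNA and 0.62 and -5.96 for snRNA. With 3 counts added they were -5.66 and -5.08 for miRNA. As a share of all counts they were -4.73 and -1.03 for miRNA, -0.31 and -0.070 for tRNA, -2.51 and 1.88 for snRNA and -1.32 and 1.41 for Y RNA.

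Of the 50 RNAs named with fitted changes, 10 turned direction with TMM and 13 with DESeq2's own size factors. With TMM and DESeq2 in turn, the values were 3.37 and 3.40 for hsa-miR-145-5p, 0.81 and 0.86 for hsa-miR-16-5p, 0.12 and 0.25 for hsa-miR-423-5p, 1.61 and 1.73 for hsa-miR-486-5p, 0.87 and 0.98 for hsa-miR-320a, 5.03 and 5.05 for hsa-miR-1, 5.85 and 5.89 for hsa-miR-4532, 0.45 and 0.87 for Y_RNA.384-201, 0.016 and 0.44 for Y_RNA.273-201, and 2.59 and 3.03 for SCARNA17-201. With DESeq2 alone they were 0.070 for tRNA34-GlyCCC, 0.26 for Y_RNA.493-201 and 0.55 for SNORD57.1-201. With the serum as a block, in 6 and in 4 samples, RNU4-1-201 was -0.78 and -0.55 and tRNA6-ValCAC -2.68 and -2.84, and tRNA4-GlyCCC was -0.092 in 4 samples. The block called 11 more of these RNAs and lost none.

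Leaving out 1 of the 4 samples turned the direction of 10 of these RNAs, none of which had passed the test. These fits have no block and break a pair, so that the difference between the sera enters their values. Their values ran from -0.11 (without UF-dFBS-1) to 0.60 for hsa-miR-203a, from -2.07 to 0.47 (without UC-dFBS-1) for hsa-miR-1, from -2.35 to 2.12 (without UC-dFBS-1) for hsa-miR-4532, and from -6.44 to 2.23 (without UC-dFBS-1) for SNORD57.1-201. Without UF-dFBS-1 the lowest values were -4.62 for RNU4-1-201, -5.32 for tRNA4-GlyCCC, -5.32 for tRNA35-GlyGCC, -8.37 for tRNA6-ValCAC and -3.27 for tRNA9-ArgTCT, and without UC-dFBS-1 the highest were 3.35, 5.03, 5.31, 2.49 and 4.87. The range of tRNA143-LysTTT was -0.39 (without UC-dFBS-2) to 2.198.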
